A study of Mus musculus with 4 samples.

Results

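The cells described here came from the caudal part of the E8.5 mouse embryo and were selected as segmenting mesoderm. They carried transcripts of Mesp2, Ripply2 or both, together with Tbx6 or Tcf15. Mesp2 and Ripply2 are genes of the segmenting anterior end of the presomitic mesoderm. The members were selected on raw counts of unique molecular identifiers (UMIs, each standing for 1 captured RNA molecule). The quality filter asked for 3000 genes and 7500 UMIs or more and for no more than 7% mitochondrial UMIs, and kept 20198 cells. Of these, 488 held 3 or more UMIs of Mesp2 and Ripply2 summed and 1 or more of Tbx6 and Tcf15 summed. These 4 genes chose the members, so their levels are a description and were not tested.

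The study profiled single cells of the caudal part of the embryo, the region in which the neural tube closes at the posterior neuropore, at the 6-7-somite stage. All embryos came from intercrosses of Grhl3+/- mice. One pool held 5 wild-type (WT) embryos and the other held 3 Grhl3-null embryos, which lack the epithelial transcription factor Grhl3 constitutively, and each pool was loaded as 2 reactions of the 10X Genomics 3′ assay. The 2 libraries of a genotype therefore share their embryos, so the p-values below hold the spread between reactions and none between embryos, and genotype cannot be told apart from pool.

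The members numbered 156 in WT 1, 146 in WT 2, 98 in Grhl3-null 1 and 88 in Grhl3-null 2, and values for the 4 libraries are given in that order throughout. Their summed counts were 8727655, 8424336, 7625560 and 6212816 UMIs. No cell barcode was shared between libraries among the members. Grhl3 itself was barely detected in them, at 4 and 8 UMIs in the WT libraries and at 0 in both Grhl3-null libraries. A total of 0 allows up to 3 UMIs, counting error only. In the presomitic cells defined below Grhl3 had 86 and 84 UMIs in the WT libraries and 0 in both Grhl3-null libraries.

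Somites form when blocks of presomitic mesoderm separate from its anterior end. A Notch-driven oscillator (the segmentation clock) and posterior Wnt and Fgf signals set when and where cells become competent. There Tbx6 and Notch signalling switch on Mesp2, a bHLH factor that places the segment border and gives a segment its rostral identity, and Mesp2 in turn induces Ripply2, a co-repressor that ends Tbx6 activity. Tcf15 (Paraxis) then marks the epithelial somite. Mesp2 and Ripply2 lie at chr7:79810727-79813439 and chr9:87015537-87019917 of mm10, both on the plus strand, and Tbx6 and Tcf15 at chr7:126781483-126785560 and chr2:152143561-152149097.

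The members differed widely in which of the chosen genes they carried. Both Mesp2 and Ripply2 were detected in 249 cells, Ripply2 alone in 187 and Mesp2 alone in 52. The sum of the 2 genes had a median of 14 UMIs and ran from 3 to 136, with library medians of 19.5, 12, 11.5 and 11. Ripply2 was the more abundant in most cells: its median was 10 UMIs (highest 117), against 1 for Mesp2 (highest 55). Tcf15 was found in nearly every member (median 20 UMIs), alone in 140 and with Tbx6 in 347, while 1 cell had Tbx6 without Tcf15.

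Summed over the members of a library, Mesp2 stood at 138, 76.4, 38.6 and 56.8 CPM (each gene's count scaled to the summed UMIs of the set) and Ripply2 at 399, 252, 204 and 216. Both were highest in WT 1 and lower in both Grhl3-null libraries than in either WT library. Tbx6 stood at 46.6, 40.0, 29.0 and 29.6 CPM and Tcf15 at 494, 419, 409 and 385, in the same genotype order.

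**Figure D1:**
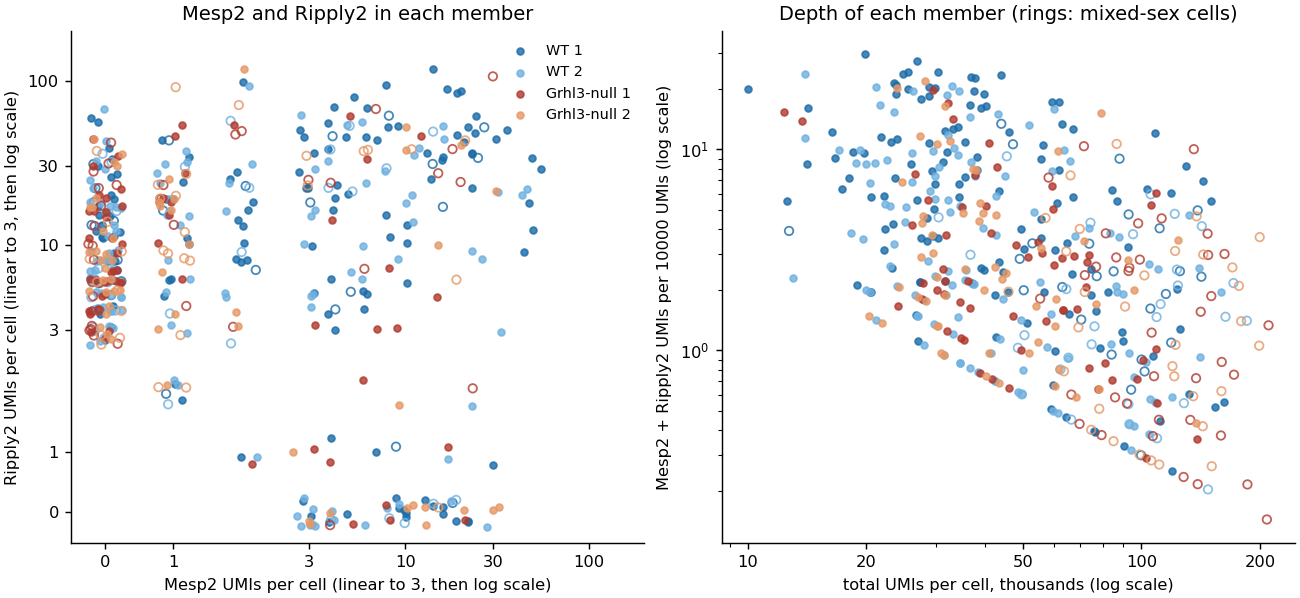
Left, UMIs of Mesp2 (x axis) and Ripply2 (y axis) in each of the 488 members, on axes that are linear up to 3 and log above, with small random shifts so that cells do not overlie. Right, total UMIs per cell (x axis, log scale) against Mesp2 and Ripply2 UMIs per 10000 (y axis, log scale), coloured by library, with rings for the 123 cells that carried UMIs of both sexes. The ringed cells lie at high total UMIs and mostly at low Mesp2 and Ripply2 per 10000.

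At the edge of the rule, 46 members had exactly 3 UMIs of Mesp2 and Ripply2 and 102 excluded cells had 2 with at least 1 of Tbx6 and Tcf15. Just inside, Mesp1 stood at 40.0, Pcdh8 at 97.1 and Dll1 at 148 CPM, and just outside at 20.2, 80.03 and 95.0 CPM. Cer1 and Lfng ran the other way, at 30.05 and 19.5 CPM inside and 32.9 and 23.2 outside. Over all members Mesp1, Pcdh8 and Dll1 stood at 96.5, 191 and 190 CPM. Members with 4 UMIs stood at 37.1, 160 and 125 CPM for these 3 genes. Further out, 582 cells with 1 UMI and at least 1 of Tbx6 and Tcf15 stood at 6.30, 22.6 and 102 CPM. Their median was 3 Tcf15 UMIs, against 21 in the excluded cells with 2. The edge at 3 UMIs is therefore a range of levels, with Mesp1 and Pcdh8 lower again at 1 UMI. In cells marked as endothelium, a type expected to lack both genes, a Mesp2 UMI was found in 9 of 1036 (0.869%, 95% Clopper-Pearson interval 0.398 to 1.64). A Ripply2 UMI was found in 17 of 1036 (1.64%, 0.959 to 2.61). These cells had a median of 41064.5 UMIs against 49863.5 in the members. Members were not taken out of them, and 1 held 3 or more Mesp2 UMIs and 3 held 3 or more Ripply2 UMIs.

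Part of the members carried transcripts of both sexes. In 123 of 488 (25.2%) 3 or more UMIs of Xist, which female cells transcribe, stood beside 2 or more from a set of 4 Y-linked genes, and these mixed-sex cells made up 16.0%, 19.9%, 37.8% and 36.4% of the members. Their share was higher in the Grhl3-null libraries, whose members were also deeper. Among members with 30000 to 60000 UMIs it was 10.4%, 10.9%, 6.06% and 6.67%. These shares rest on few cells (5 of 48, 6 of 55, 2 of 33 and 2 of 30), and the part of depth was not tested. Free Xist and Y-linked RNA was not measured. The mixed-sex cells had a median of 99755 UMIs against 38068 in the other members, and medians of 1.65 against 3.23 UMIs of Mesp2 and Ripply2 per 10000. In all, 129 members (26.4% of the 488, and 17.3%, 21.2%, 38.8% and 37.5% by library, higher in the Grhl3-null libraries) carried a list of neural, endothelial, ectodermal, gut, lateral plate, intermediate mesoderm or notochord markers, among them 77 of the 123 mixed-sex cells. Over all filtered cells the mixed-sex share was 5.00%, 5.14%, 7.66% and 7.32%.

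A set of 295 single-type members (108, 97, 43 and 47) was left once mixed-sex cells, cells in the top 5% of UMIs of their library and carriers of another list were taken out, a choice made after seeing the data. Their medians were 34125 UMIs in all and 3.85 UMIs of Mesp2 and Ripply2 per 10000. In them Mesp2 was at 204, 123, 49.0 and 122 CPM and Ripply2 at 571, 375, 310 and 325. The Tbx6 and Tcf15 levels of single-type members were 48.0, 49.1, 38.2 and 43.1 CPM, and 587, 477, 462 and 551 CPM. Values in these cells stand beside the results below where they were compared.

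Within the members, Pearson's r between Mesp2 and Ripply2 was 0.14 on log values of 488 cells, which share their library and differ in depth. The rule sets a minimum on the sum of these 2 genes and so lowers this value, which is a description only. The genes most like Mesp2 were its neighbour and family member Mesp1 (r 0.77), the Notch ligand Dll1 (0.64), the stress-response gene Gadd45g (0.59), Meox1 (0.41) and Foxc1 (0.39). Those most like Ripply2 were Pcdh8, a protocadherin of the segment border (0.65), Lfng, the glycosyltransferase that modifies Notch (0.55), Fgf18 (0.54), Arl4d (0.46) and Pdhx (0.43). Among single-type members r was 0.75 for Mesp1 and 0.62 for Pcdh8.

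Mesp1 lies at chr7:79792241-79793788 on the minus strand, beside Mesp2. The RefSeq promoter windows of these genes (GRCm38.p6, 250 bases before to 50 after the start, read 5′ to 3′ on the gene's strand) are shown because Mesp1 followed Mesp2 most closely, with that of Ripply2 as the other gene of the rule. Capitals mark the T-box core AGGTGT or its reverse complement ACACCT, the letters that a factor such as Tbx6 can bind.
Mesp1, chr7:79793541-79793840, minus strand: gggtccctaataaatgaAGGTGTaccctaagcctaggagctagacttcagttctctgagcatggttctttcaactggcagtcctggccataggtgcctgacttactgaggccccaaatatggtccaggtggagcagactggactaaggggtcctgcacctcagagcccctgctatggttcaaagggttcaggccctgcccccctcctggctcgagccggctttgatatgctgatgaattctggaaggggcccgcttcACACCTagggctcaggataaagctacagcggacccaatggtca
Mesp2, chr7:79810477-79810776, plus strand: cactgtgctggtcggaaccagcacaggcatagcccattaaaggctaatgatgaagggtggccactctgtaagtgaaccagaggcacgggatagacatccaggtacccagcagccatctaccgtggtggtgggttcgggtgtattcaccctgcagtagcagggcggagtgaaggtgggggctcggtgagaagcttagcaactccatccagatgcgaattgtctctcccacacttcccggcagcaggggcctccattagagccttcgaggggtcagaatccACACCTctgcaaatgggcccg
Ripply2, chr9:87015287-87015586, plus strand: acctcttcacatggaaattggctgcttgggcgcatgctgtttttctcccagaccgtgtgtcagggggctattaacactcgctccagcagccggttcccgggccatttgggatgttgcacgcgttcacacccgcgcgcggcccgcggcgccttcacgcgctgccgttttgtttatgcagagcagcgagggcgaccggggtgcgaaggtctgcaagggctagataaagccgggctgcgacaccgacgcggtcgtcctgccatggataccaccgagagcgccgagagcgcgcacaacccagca
The core occurred 2 times in the Mesp1 window, 1 time in that of Mesp2 and 0 times in those of Ripply2, Pcdh8, Dll1 and Cer1. It occurs in 13.7% of all 32851 promoter windows. TGGGAA, the core bound by the Notch effector Rbpj, occurred in the windows of Lfng (2 times) and Hes7 (1 time), and occurs in 25.6% of all windows on either strand.

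To place the members along the paraxial mesoderm, their summed counts were set beside 2 sets of cells cut on the same 4 genes. Presomitic cells had no Mesp2 or Ripply2, at least 3 UMIs of Tbx6 and no Tcf15 (619, 592, 300 and 281 cells). Somite cells had no Mesp2, Ripply2 or Tbx6 and at least 3 UMIs of Tcf15 (282, 254, 353 and 369 cells). Tbx6 stood at 130, 128, 118 and 113 CPM in the first set and Tcf15 at 618, 548, 498 and 535 CPM in the second. A gene was called where edgeR's quasi-likelihood test gave a Benjamini-Hochberg adjusted p below 0.05 and the log2 fold change was 1 or more in either direction. The 4 genes of the rule took no part in any test.

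Against presomitic cells, 542 of 12399 genes (4.37%) were called higher in the members and 447 (3.61%) lower. Of 16 tested genes that determine or pattern segments, 14 rose and none fell, with a median log2 fold change of 5.02 against 0.00 over all genes tested (single-type members, 14 of 15). The rise was steepest for genes that presomitic cells barely transcribed.

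Mesp1, which acts with Mesp2, stood at 155, 104, 48.9 and 62.9 CPM in the members and between 2.11 and 3.79 CPM in presomitic cells (log2 fold change 5.11 ± 0.11 SE, adjusted p = 6.7e-14). Pcdh8 stood at 206, 195, 161 and 201 CPM against 0.807 to 1.94 (7.08 ± 0.25, adjusted p = 1.4e-11). No library of members overlapped the presomitic libraries for either gene. Tbx18, a T-box factor of the rostral segment, stood at 18.4, 15.3, 26.0 and 27.2 CPM against at most 0.436 (6.32 ± 0.26). Cer1, a secreted inhibitor of Nodal and Bmp that marks the newest segments, stood at 33.9, 30.3, 33.8 and 44.1 CPM against totals of 2, 2, 0 and 0 UMIs in presomitic cells, too few for a fold change.

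Of 19 somite genes tested, 17 rose from presomitic cells to members (median 4.18; single-type members, 15 of 18). Meox1, a homeobox gene of the somite, stood at 472, 389, 353 and 343 CPM in the members, at 3.80 to 7.63 CPM in presomitic cells and at 580, 470, 503 and 511 CPM in somite cells. It rose by 6.29 ± 0.10 log2 from presomitic cells (adjusted p = 3.4e-15) and was not called between members and somite cells (-0.37). The forkhead genes Foxc1 and Foxc2, needed for somites to form, were called higher than in presomitic cells only. Foxc2 stood at 256, 228, 203 and 218 CPM, against 9.85 to 12.6 CPM in presomitic cells (4.32 ± 0.06) and 158 to 178 CPM in somite cells (0.46, not called). Foxc1 stood at 233, 206, 181 and 182 CPM, against 48.8 to 55.6 (1.96 ± 0.06) and 107 to 119 CPM (0.85, under the fold threshold), so its highest libraries were those of the members.

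The ligand Fgf18 peaked in the members, at 221, 179, 137 and 179 CPM, against 4.19 to 7.63 in presomitic cells (5.01 ± 0.12) and 66.5 to 78.3 in somite cells (1.35 higher in the members). Ebf1 rose by 5.07 ± 0.07, Efnb2, an ephrin ligand of the segment border, by 3.77 ± 0.09 and Twist1 by 4.18 ± 0.12. Epha4, an ephrin receptor of the border, was not called (0.13 ± 0.05, adjusted p = 0.054). Of 22 adhesion and matrix genes, 4 rose (Pcdh8, Pcdh19, Efnb2 and Fbn2) and 3 fell (Efna1, Epha1 and Fbln2).

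**Figure D2:**
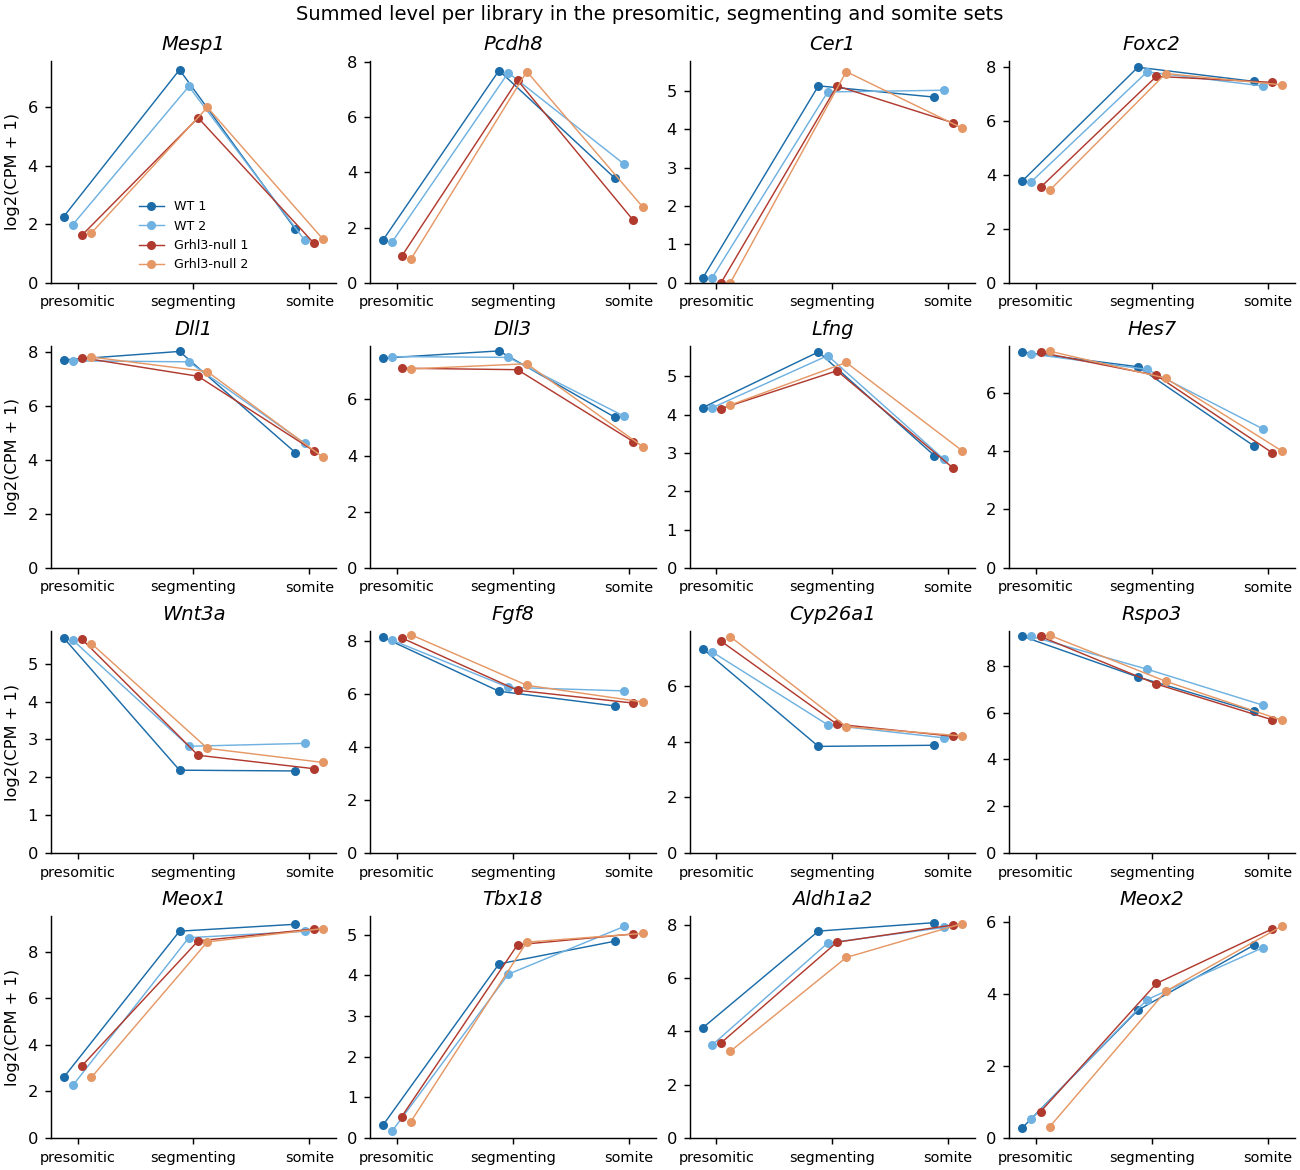
Level of 16 genes as log2(CPM + 1) (y axis) in presomitic, segmenting (the 488 members) and somite cells (x axis), 1 point per library, coloured and joined by library. Mesp1, Pcdh8 and Lfng are highest in the segmenting cells, Dll1 and Hes7 are high in presomitic and segmenting cells and low in somite cells, and Meox1 is high in segmenting and somite cells.

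Among the Notch genes, the ligand Dll1 stood at 257, 196, 135 and 153 CPM in the members, 1 library above and 3 below the 202 to 222 CPM of presomitic cells (-0.16 ± 0.12, adjusted p = 0.30), and at 16.0 to 23.3 CPM in somite cells (3.31 ± 0.16). Dll3, a ligand-like inhibitor of Notch, behaved alike (0.13 ± 0.08 against presomitic cells, adjusted p = 0.25, and 2.55 ± 0.10 against somite cells). Lfng peaked in the members, at 48.9, 45.7, 34.5 and 40.2 CPM against 16.9 to 18.1 in presomitic (1.34 ± 0.08) and 5.11 to 7.35 in somite cells (2.78 ± 0.10).

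The receptor Notch1 stood at 291, 260, 258 and 284 CPM in the members, above both sets in every library (1.62 ± 0.08 and 1.61 log2). The clock repressor Hes7 was between the sets, at 117, 110, 95.5 and 89.3 CPM, against 160 to 170 in presomitic cells (-0.64 ± 0.09, adjusted p = 4.0e-05, under the fold threshold) and 14.4 to 26.0 in somite cells (2.58 ± 0.12). Over the list of Notch and clock genes, 4 of 20 rose and 3 fell from presomitic cells (median -0.06), and 6 of 20 were higher and none lower than in somite cells (median 0.37; single-type members, 9).

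Posterior signals were down in the members. Of 19 posterior Wnt and Fgf genes, 15 fell from presomitic cells and none rose (median -2.02; single-type members, 16 of 19 and -2.93). Wnt3a, the posterior Wnt ligand, stood at 3.55, 6.05, 4.98 and 5.79 CPM in the members against 45.3 to 50.5 in presomitic cells (-3.23 ± 0.13). Fgf8 stood at 67.7, 75.3, 69.5 and 79.4 CPM against 260 to 301 (-1.90 ± 0.08), and Brachyury (T), the posterior mesoderm factor, at 38.5, 84.3, 63.9 and 60.7 CPM against 304 to 356 (-2.37 ± 0.13). The groups did not overlap for any of these 3 genes. Lef1, the nuclear partner of Wnt signalling, was not called (0.27), and in the Fgf response list the receptors Fgfr1 (1.20) and Fgfr2 (1.88) rose while 5 of 14 genes fell, among them the feedback inhibitor Spry4 (-1.60).

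Of 12 retinoic acid genes 2 rose from presomitic cells to members and 2 fell. Cyp26a1, which degrades retinoic acid, stood at 13.3, 23.5, 23.9 and 22.4 CPM in the members against 151 to 220 in presomitic cells (-3.10 ± 0.09). Aldh1a2, which makes it, stood at 218, 159, 163 and 109 CPM against 8.56 to 16.5 (3.82 ± 0.14), and at 239 to 271 CPM in somite cells (-0.65, not called). The other called genes were the receptors Rarb (2.40 ± 0.19) and Rarg (-1.26).

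Against somite cells, 215 genes (1.73%) were called higher in the members and 275 (2.22%) lower. Mesp1 (5.54 ± 0.12) and Pcdh8 (4.38 ± 0.19) led among the genes that were higher. Of the 19 somite genes, 10 were lower in the members and none higher (median -1.16). Uncx, a homeobox gene of the caudal part of the formed somite, stood at 2.18, 2.73, 3.28 and 1.29 CPM in the members against 12.8 to 20.4 in somite cells (-2.81 ± 0.19). Meox2 stood at 10.7, 13.3, 18.5 and 15.8 CPM against 37.9 to 57.5 (-1.66 ± 0.09). Pax1, of the sclerotome, was lower by -2.31 ± 0.28. Uncx and Meox2 had their highest member library below the lowest somite library.

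Not every segmental gene separated the members from somite cells. Tbx18 (-0.52) and Cer1 (0.71) were not called, Cer1 standing at 27.5, 31.2, 16.9 and 15.3 CPM in somite cells. Of 19 posterior Wnt and Fgf genes, 6 were higher in the members (Lef1, Fgf3, Fgf4, Rspo3, Wnt5a and Msgn1) and none lower, while Wnt3a (0.23) and Fgf8 (0.49) were not called. None of 21 cell cycle genes was called by edgeR or by DESeq2, with 10 at an unadjusted p under 0.05 in each, and in edgeR all 10 had an adjusted p under 0.05 as well and missed only the fold threshold.

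Some markers of other cell types were called in these comparisons. Against presomitic cells, 4 of 8 endothelial genes were higher in the members (single-type members, 1 of 4 higher and 1 lower), 2 of 5 intermediate mesoderm genes and Shh were higher, 1 of 8 lateral plate genes was higher and 2 were lower, 1 of 8 surface ectoderm genes was lower (single-type members, 5 of 5), 3 of 9 dissociation-response genes were higher and 4 of 6 erythroid genes were lower (single-type members, 1 of 6 higher). The erythroid list summed to 316, 32.6, 261 and 37.2 CPM in presomitic cells and to 35.1, 28.0, 34.5 and 37.7 in the members. Its gap therefore lay mainly in WT 1 and Grhl3-null 1. Of 8 neural genes none was called by edgeR or DESeq2 (3 at an unadjusted p under 0.05 in each), but in single-type members 1 of 6 was higher and 3 were lower. Against somite cells, 3 of 8 endothelial, 3 of 8 gut, 3 of 3 germ cell, 3 of 9 dissociation-response, 1 of 8 surface ectoderm and 1 of 4 notochord genes were lower in the members and none of these lists had a gene called higher. Of 989 genes called against presomitic cells 712 were also called in single-type members, and of 490 called against somite cells 347. Without mixed-sex cells alone, 844 of the 989 and 415 of the 490 were called again.

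The members were next divided by which of the 2 chosen genes they carried more of: 389 had more Ripply2 (119, 116, 82 and 72), 93 had more Mesp2 (33, 29, 15 and 16) and 6 had equal counts. Between them 24 of 10101 genes (0.238%) were higher in the Ripply2-rich cells and 15 (0.149%) were higher in the Mesp2-rich cells, 39 in all, or 25 without either Grhl3-null library. Of 13 segment genes tested, Cer1, Pcdh8 and Tbx18 were higher on the Ripply2 side and Mesp1 on the Mesp2 side, and of 20 Notch and clock genes the Notch target Hes5 was higher on the Mesp2 side.

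Cer1 stood at 43.6, 35.8, 37.5 and 50.2 CPM in Ripply2-rich cells against 6.46, 5.41, 1.11 and 7.86 in Mesp2-rich cells (2.91 ± 0.20). Pcdh8 stood at 245, 218, 180 and 221 CPM against 92.4, 95.4, 36.5 and 82.0 (1.46 ± 0.10), and Tbx18 at 23.1, 17.8, 27.8 and 29.1 CPM against 4.97, 4.06, 7.74 and 15.7 (1.72 ± 0.22). Every library showed these directions. Lrrtm3, a leucine-rich transmembrane protein (1.99 ± 0.23), and the ligand Wnt16 (1.43 ± 0.23) were also higher on the Ripply2 side.

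Mesp1 stood at 121, 62.4, 29.0 and 28.4 CPM in Ripply2-rich cells against 265, 300, 195 and 269 in Mesp2-rich cells (-2.14 ± 0.18, adjusted p = 1.2e-07). Hes5 stood at 6.94, 15.7, 24.8 and 14.1 CPM against 43.7, 32.5, 60.8 and 75.2 (-1.82 ± 0.19). Gadd45g stood at 64.3, 50.9, 26.0 and 24.2 CPM against 159, 110, 109 and 145 (-1.63 ± 0.15), and the stress gene Ddit4 at 36.5, 39.6, 22.1 and 20.5 CPM against 101, 65.6, 68.6 and 64.0. For these 4 genes the ranges of the 2 sides did not overlap. Dll1 (-0.91), Lfng (0.18), Fgf18 (0.22) and Hes7 (0.12) were not called.

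**Figure D3:**
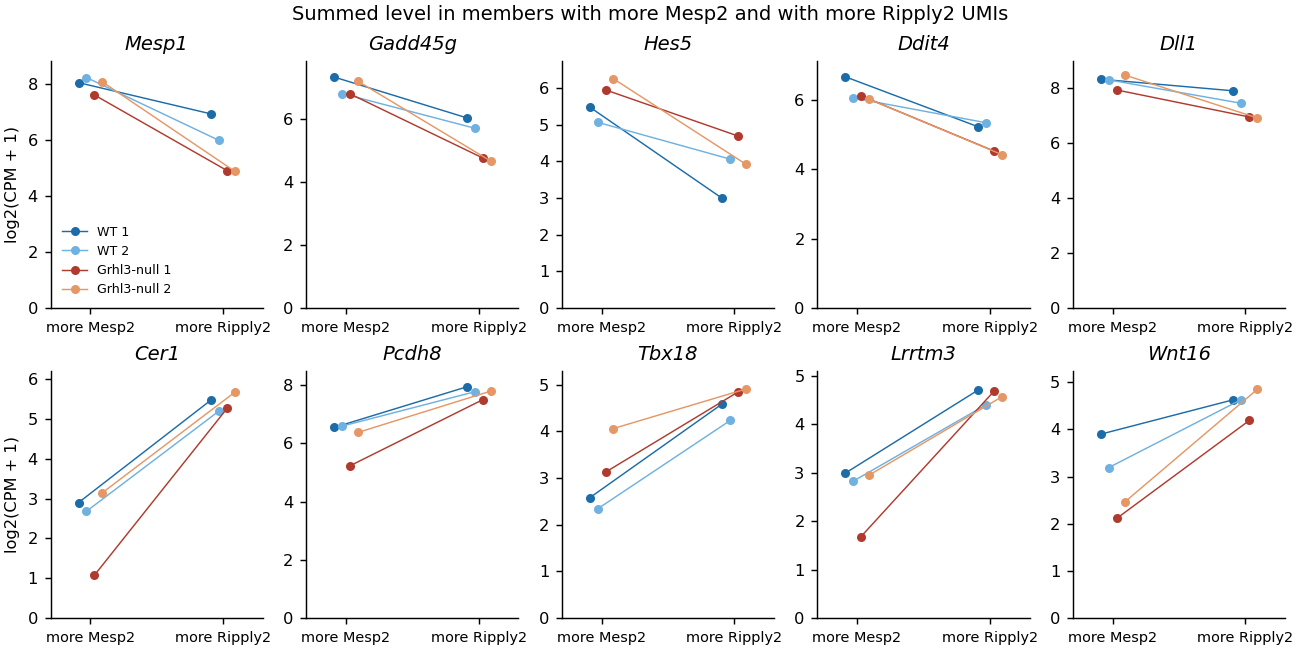
Level of 10 genes as log2(CPM + 1) (y axis) in the members with more Mesp2 and in those with more Ripply2 (x axis), 1 point per library, with lines joining the same library. Cer1, Pcdh8 and Tbx18 rise towards the Ripply2 side and Mesp1, Hes5 and Gadd45g fall in every library.

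In single-type members 18 of the 39 genes were called again, with Cer1 at 3.78, Tbx18 at 2.43, Pcdh8 at 1.87, Mesp1 at -1.93, Hes5 at -3.34 and Gadd45g at -1.66. Foxb1, a forkhead gene, stood at 38.5, 61.4, 61.0 and 55.1 CPM in Ripply2-rich cells against 136, 82.6, 71.9 and 131 in Mesp2-rich cells (-1.01; single-type members, -1.42, called). Further genes of the Mesp2 side that could not be tested in single-type members included Shh (-3.25), Rbp4 (-2.82), Car4 (-2.26), Krt8 (-1.50) and Krt18 (-1.39). One WT 2 cell that carried 8 of 8 gut genes held 65.3% of the Rbp4 and 45.3% of the Car4 UMIs of all members, and one Grhl3-null 1 cell held 50.5% of those of Shh. Without WT 2 the Rbp4 difference was 0.23.

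A further split, added after seeing the data, set the 140 members without a Tbx6 UMI against the 348 with one. With a median of 1.5 Tbx6 UMIs per member, a count of 0 does not show that a cell lacked the transcript, and the cells without a UMI were shallower in every library (on average 43317, 42797, 70709 and 59713 UMIs per cell against 60908, 63521, 81256 and 74453). Of 10103 genes, 14 (0.139%) were higher in the cells without Tbx6 and 22 (0.218%) lower, 36 in all, or 62 without Grhl3-null 2. Tbx18 stood at 33.6, 38.2, 41.5 and 39.3 CPM without Tbx6 and at 14.2, 9.30, 19.4 and 23.8 with it (1.24 ± 0.15). The Wnt agonist Rspo3 stood at 75.6, 125, 79.1 and 103 CPM without and at 215, 260, 179 and 179 with it (-1.15 ± 0.08), and Hes7 at 69.3, 66.7, 41.1 and 56.8 against 131, 122, 118 and 98.6 (-1.04 ± 0.09). The ranges did not overlap for any of the 3 genes. Of 17 posterior Wnt and Fgf genes 5 were lower without Tbx6 and none higher (median -0.78; single-type members, 8 of 11), among them Fgf3 (-1.63 ± 0.19). The gut-marked WT 2 cell belonged to the cells without Tbx6 and held 79.2% of the UMIs of Spink1 (3.81 higher there).

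Between the genotypes the members made up 2.86% and 2.85% of the filtered cells in the WT libraries and 2.02% and 1.84% in the Grhl3-null libraries, with 95% Clopper-Pearson intervals of 2.43 to 3.33, 2.41 to 3.35, 1.65 to 2.46 and 1.48 to 2.26 that cover counting error only. Both WT libraries were above both Grhl3-null libraries, and the means differed by -0.923 percentage points. The exact two-sided permutation test gave p = 0.333, the smallest p that 2 libraries against 2 allow.

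The order of the libraries was the same without mixed-sex cells (2.53%, 2.41%, 1.36% and 1.26%) and after thinning every cell to 7500 UMIs (1.65%, 1.08%, 0.599% and 0.502%). By sex, which was read from Xist and Y-linked UMIs, female cells held 104, 97, 23 and 25 members (2.98%, 2.97%, 1.26% and 1.47%; difference -1.61 points). Male cells held 23, 17, 36 and 27 (1.83%, 1.41%, 1.58% and 1.17%; difference -0.241, exact permutation p = 0.667), and there the genotypes overlapped.

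Presomitic cells made up 11.3%, 11.6%, 6.20% and 5.88% of the filtered cells and somite cells 5.17%, 4.97%, 7.29% and 7.72%, lower and higher in the Grhl3-null libraries. The somite cells went opposite ways by sex: 214, 199, 36 and 23 were female, of 3488, 3263, 1821 and 1700 female cells in all, and 27, 19, 233 and 250 were male, of 1259, 1206, 2278 and 2300. Taken over the 3 sets together the members were 14.8% and 14.7% in the WT libraries and 13.05% and 11.9% in the Grhl3-null libraries (-2.25 points). Among single-type cells these shares were 13.3%, 12.8%, 8.90% and 9.44%, and after thinning to 7500 UMIs they were 18.6%, 13.4%, 7.73% and 6.52% (-8.91 points). How far the dissection of the 2 pools set these shares was not tested.

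**Figure D4:**
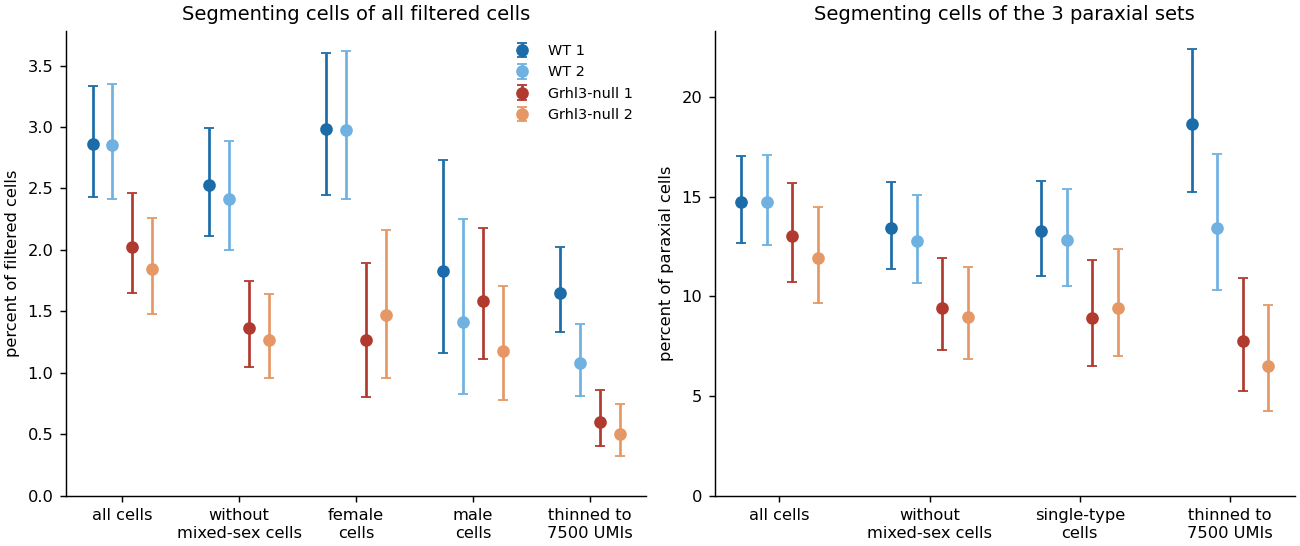
Members as a percent of all filtered cells (left) and of the presomitic, segmenting and somite cells together (right) in each library (x axis), with 95% Clopper-Pearson intervals for counting error only. Both WT libraries lie above both Grhl3-null libraries in each group of cells shown, except in male cells (left), where WT 2 lies below Grhl3-null 1.

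Within the members, 39 of 11476 genes (0.34%) were called higher in the Grhl3-null libraries and 22 (0.192%) lower. In single-type members 10 were higher and 12 lower of 9578 tested, and 13 genes were called in both. Of the 61 genes, 31 were called again without WT 1, 41 without WT 2, 33 without Grhl3-null 1 and 49 without Grhl3-null 2, where the calls numbered 101. The balance of directions turned without WT 1 (25 higher and 39 lower) and in female members alone (25 higher and 45 lower, with 15 of the 61 among them). It also turned without mixed-sex cells (11 higher and 17 lower), with no minimum fold (225 and 309) and with DESeq2 (2 and 3). The members' median depth differed with genotype (43785.5, 42575, 69053.5 and 58635 UMIs per cell), as did the mixed-sex shares above. Without the cells of most UMIs 37 genes were called, 28 of them among the 61, and without mixed-sex cells 28 were called, 19 of them among the 61.

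Of 15 segment genes tested between the genotypes Mesp1 was lower and Pax1 higher, against 0.34% of all genes called higher and 0.192% lower. In 6 lists of pathway genes edgeR called no gene. These were 20 Notch and clock genes (11 at an unadjusted p under 0.05 by edgeR and 9 by DESeq2), 18 posterior Wnt and Fgf genes (9 and 5), 14 Fgf response genes (5 and 1), 12 retinoic acid genes (4 and 3), 22 adhesion and matrix genes (10 and 6) and 21 cell cycle genes (6 and 4). With an adjusted p under 0.05 in edgeR but a smaller fold were 9, 3, 1, 2, 4 and 3 genes of these lists, in this order. DESeq2 also called none, but gave an adjusted p to only 7, 7, 3, 4, 10 and 19 of them. Over all 11476 genes, 2200 had an unadjusted p under 0.05 by edgeR and 799 by DESeq2. At any fold, 534 of the 11476 had an adjusted p under 0.05 in edgeR. The log2 differences were -0.17 for Pcdh8, 0.25 for Cer1, 0.64 for Tbx18, -0.67 for Dll1, -0.47 for Dll3, -0.36 for Lfng, -0.31 for Hes7, -0.32 for Meox1 and -0.22 for Foxc2.

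Mesp1 differed by -1.24 ± 0.14 (adjusted p = 0.000105), from the values of 155, 104, 48.9 and 62.9 CPM given above. In single-type members it stood at 227, 174, 91.5 and 160 CPM and was not called (-0.67 ± 0.15, adjusted p = 0.0212), with Grhl3-null 2 close to WT 2. In male cells alone the difference was 0.59. In presomitic and somite cells it was -0.64 and -0.38, neither of them called.

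Of the genes lower in the Grhl3-null libraries, Stmn1 and Hdac1 had the largest differences among those above 10 CPM, and both were lower in all 3 paraxial sets. Stmn1, which destabilises microtubules, stood at 1019, 1044, 324 and 390 CPM in the members (-1.55 ± 0.06, adjusted p = 1.4e-10), with differences of -1.48 in presomitic and -1.47 in somite cells. Hdac1, a histone deacetylase, stood at 147, 145, 58.9 and 65.3 CPM (-1.25 ± 0.07, adjusted p = 9.9e-09), with -1.21 and -1.16. The genotypes did not overlap for either gene. Both lie on the chromosome of Grhl3 (chr4:135541888-135573630), Stmn1 at chr4:134468320-134473843 and Hdac1 at chr4:129516104-129542713. Of the 61 called genes 6 lay within 10 Mb of Grhl3 (9.84%), against 187 of 11476 tested (1.63%), and in single-type members 4 of 22 did (18.2%).

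A further 3 gene models that are near-copies of other genes were also higher, and reads of copies may be split uncertainly. Gm10036, a copy of the ribosomal protein gene Rpl11, stood at 4.81, 5.10, 345 and 307 CPM (6.02 ± 0.10), while Rpl11 stood at 3481, 3555, 2960 and 2986. Gm10093, a copy of Hdac1, stood at 1.03, 0.712, 45.4 and 45.2 CPM (5.65 ± 0.18), opposite to Hdac1. Gm10282, a copy of the nucleosome-binding gene Hmgn2, was higher by 1.63 ± 0.12, and Hmgn2 stood at 638, 672, 503 and 513 CPM. In presomitic and somite cells Gm10036 was higher by 6.12 and 5.76, Gm10093 by 5.30 and 5.31, and Gm10282 by 1.48 and 1.31. Like Hdac1, Rpl11 (chr4:136028265-136053428) and Hmgn2 (chr4:133964738-133968650) lie on the chromosome of Grhl3. The copies lie elsewhere, Gm10036 on chr18, Gm10093 on chr17 and Gm10282 on chr8.

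Among the other genes, Nr2f1, a nuclear receptor, stood at 9.62, 13.9, 43.9 and 35.4 CPM (1.75 ± 0.15, adjusted p = 3.4e-06), and Id2, an inhibitor of bHLH factors, at 48.9, 61.8, 121 and 102 CPM (1.01 ± 0.10, adjusted p = 2.1e-05). Both were called in single-type members too. Lower in the Grhl3-null libraries were Nkd2, an inhibitor of Wnt signalling (19.7, 20.2, 8.00 and 11.4 CPM), Mfap4, a matrix protein (23.0, 25.5, 8.39 and 13.8 CPM), and Hoxd9 (22.3, 28.7, 11.9 and 11.4 CPM), each without overlap between the genotypes and each called in single-type members. In male members alone (23, 17, 36 and 27 cells) Mfap4 and Hoxd9 turned to 0.52 and 1.12. Nr2f1, Id2, Nkd2, Mfap4 and Hoxd9 moved the same way in presomitic and somite cells as in all members. The differences there were 1.31 and 0.58 for Nr2f1, 0.42 and 0.33 for Id2, and -0.81 and -0.49 for Nkd2. For Mfap4 they were -1.14 and -0.94, and for Hoxd9 -0.36 and -1.70. The posterior genes Hoxa10 (-1.69) and Hoxc10 (-2.54) were lower as well (both on few UMIs), with the same direction in presomitic cells (-3.52 and -5.29) and somite cells (-1.93 and -4.04).

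Markers of neural tissue moved with genotype. Of 8 neural genes 4 were called higher in the Grhl3-null members (Pax6, Sox3, Sox1 and Irx3). Carriers of the neural list numbered 8, 9, 21 and 15 of the 156, 146, 98 and 88 members, and the summed level of the list was 55.1, 54.2, 115 and 98.7 CPM with Sox2 the most abundant. In single-type members the sums were 20.8, 14.8, 39.8 and 23.9 CPM and 0 of 3 tested genes were called. That cut removed carriers of this same list, so its lower sums are no test of the difference. The intermediate mesoderm genes Pax8 and Pax2, the lateral plate gene Prrx1 and Shh were also called higher, and Flt1, of endothelium, lower. Over all genes 0.34% were called higher and 0.192% lower. The 8 endothelial genes together summed to 71.7, 66.6, 45.0 and 72.1 CPM, so the list did not follow Flt1 in Grhl3-null 2. The 5 intermediate mesoderm genes summed to 49.4, 44.0, 61.0 and 66.6 CPM and the 8 lateral plate genes to 71.6, 73.4, 81.4 and 103. None of 6 erythroid, 7 surface ectoderm, 8 gut and 1 germ cell genes was called by edgeR (1, 4, 6 and 0 at an unadjusted p under 0.05, and 0 by DESeq2), nor were the 4 Y-linked genes, of which 3 had an adjusted p under 0.05 with a smaller fold. DESeq2 gave none of these genes an adjusted p. The immediate early gene Egr1 was called lower in the Grhl3-null members by edgeR's quasi-likelihood test (-1.73 ± 0.40, adjusted p = 0.0189). The 11 dissociation-response genes summed to 3018, 2911, 2638 and 2861 CPM in the members. Of Pax8, Pax2, Prrx1, Shh and Flt1, none could be tested in single-type members, where Pax8 had 3, 2, 0 and 0 UMIs, Pax2 had 8, 2, 3 and 0, Prrx1 had 2, 5, 5 and 0, Shh had 1, 2, 1 and 1, and Flt1 had 0, 1, 0 and 0. The single Grhl3-null 1 cell named above held 50.5% of all Shh UMIs.

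**Figure D5:**
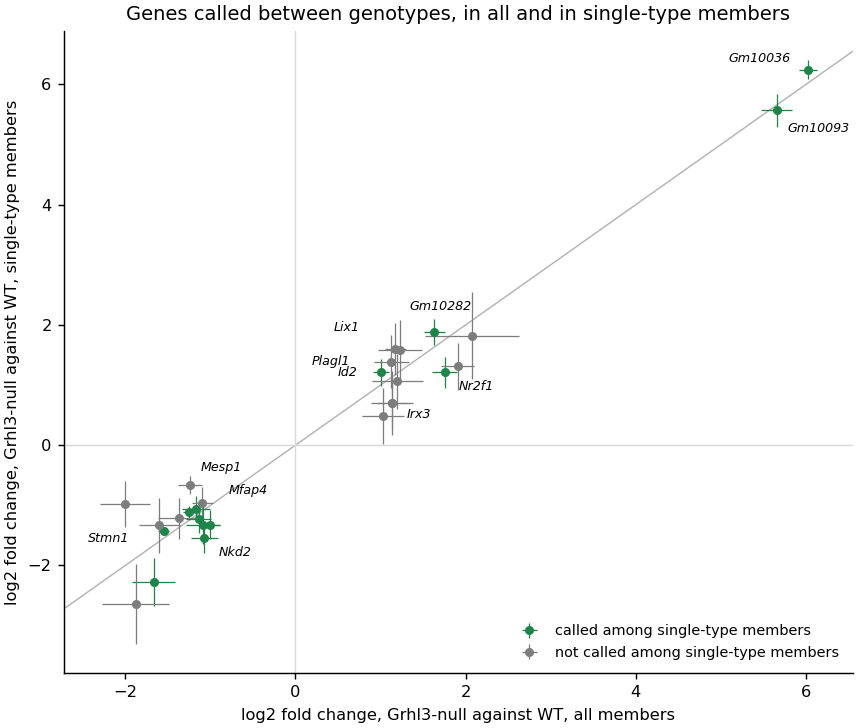
Log2 fold change, Grhl3-null against WT, in all 488 members (x axis) and in the 295 single-type members (y axis) for the 28 of 61 called genes that were also tested there, with standard errors as bars and genes called in both in green. All 28 have the same sign in both, and Mesp1 lies nearer to 0 in the single-type members.

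Last, the genotype difference in the members was tested against that in the 2 neighbouring sets. Of 12835 genes 5 (0.039%) differed by this interaction in edgeR and 0 in DESeq2 (196 at an unadjusted p under 0.05), and the 5 became 17 without WT 1, 1 without Grhl3-null 1 and 3 without Grhl3-null 2, with 2, 0 and 1 of the 5 among them. Gadd45g stood at 86.2, 61.8, 35.5 and 41.5 CPM in the members, lower in both Grhl3-null libraries, while it stood at 2.76, 2.81, 6.76 and 3.63 in presomitic and 19.5, 23.3, 22.6 and 25.4 in somite cells. Pcdh8 was not called between the genotypes in the members and stood at 12.8, 18.7, 3.79 and 5.74 CPM in somite cells (-1.74), with -1.10 in presomitic cells. The somite set was mostly female in the WT and mostly male in the Grhl3-null libraries, with Y-linked genes summing to 20.9, 19.3, 97.4 and 105 CPM there against 39.8, 41.0, 67.7 and 59.2 in the members, and the interaction was not tested within 1 sex. The other 3 genes were Plagl1, Grem1 and Gm16222, and in single-type members Pcdh8, Plagl1 and Gm16222 were called. Without mixed-sex cells Pcdh8 was the only one of the 5 called again.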

How the data were processed

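The deposited files held gene by droplet matrices of UMI counts, which the authors made with Cell Ranger (3.0.0 per the file headers) on mm10 and which were not normalised. The matrices held 6186, 5698, 6177 and 6178 droplets, and the quality filter left 5459, 5116, 4842 and 4781 cells (226723903, 220747840, 226059247 and 209833527 UMIs). Doublets were not removed from the matrices here, so the counts of mixed-sex and single-type members stand beside the results. The members, gene lists and comparison sets were chosen with earlier results of these data known.

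Counts were summed per library and set, and all genes were fitted together, without the 4 genes of the rule, in R 4.3.3 with edgeR 4.0.16 (TMM, filterByExpr, quasi-likelihood test, Benjamini-Hochberg adjustment). Sums of the same library in compared sets were blocked by library, and the genotype fit had no block. DESeq2 1.42.0 was the alternative test. Shares were compared by exact permutation over libraries. The libraries of a pool were not duplicates, since their member counts over genes varied beyond sampling (chi-square over its degrees of freedom, 1.98 for WT and 2.10 for Grhl3-null). On simulated counts with 200 genes changed by 2 log2 units, the genotype fit recovered 199 of 200 and the presomitic fit 200 of 200. Genes named were those of the lists and, for each test, the 12 largest changes in each direction among called genes above 10 CPM, of which the text gives a part; Rpl11 and Hmgn2 (resembled by called copies) and Foxb1 were chosen after their values were seen. A named gene that is withheld is not reported here.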

Additional observations from a re-analysis of the deposited data

Results flagged for a closer look

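The genotype difference in the segmenting cells was set against its mean in presomitic and somite cells for each gene, and 5 genes differed by that interaction in edgeR's quasi-likelihood test. Gadd45g differed by -1.49 log2 (adjusted p = 0.0090). Its level was lower in the Grhl3-null members (86.2, 61.8, 35.5 and 41.5 CPM, a difference of -0.97). In the other sets it ran the other way, by 0.91 in presomitic cells and 0.15 in somite cells, and both moves enter the -1.49. In single-type members the difference was -0.83 and was not called. Pcdh8 differed by 1.25 (adjusted p = 0.0137): the members stood at 206, 195, 161 and 201 CPM while somite cells stood at 12.8, 18.7, 3.79 and 5.74 CPM. Those somite cells were mostly female in WT (214 and 199 female, 27 and 19 male) and mostly male in Grhl3-null (36 and 23 female, 233 and 250 male), and the part of sex was not tested. In single-type members it was 1.92 and called.

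Plagl1, a zinc finger factor, differed by 1.12 (adjusted p = 0.0139), at 4.81, 7.72, 13.9 and 13.7 CPM in the members against no less than 10.5 in presomitic and 12.9 in somite cells, and by 2.14 in single-type members. Grem1, a Bmp inhibitor, differed by 1.39 (adjusted p = 0.0280), at 3.78, 4.15, 14.8 and 15.3 CPM in the members, and by 0.40, not called, in single-type members. Its rise was not particular to the members. Between the genotypes it was 1.90 higher in the Grhl3-null members and 1.21 higher in presomitic cells (adjusted p = 0.0147), against -0.18 in somite cells. Gm16222 differed by a fitted -9.77 (adjusted p = 0.0116), which rests on 11 and 9 UMIs in the WT members and 0 in both Grhl3-null libraries, and is no measure of size.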

How the results depend on the processing

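The share of members kept its direction under every alternative run (differences of -0.241 in male cells to -2.01 without posterior Hox cells, in percentage points). The share among the 3 paraxial sets did too, at -1.69 without Grhl3-null replicate 2 and -8.91 after thinning (main -2.25). By sex that share was 11.8%, 8.85%, 10.0% and 7.40% in male cells, where the genotypes overlapped. In female cells it was 14.5%, 14.1%, 9.79% and 12.7%. With 2 libraries a genotype the permutation p of these shares can pass no threshold. For the share of all filtered cells the mean of the differences within replicate numbers, the replicate block, was also -0.923. The block is not a pairing: deviations of same-numbered libraries correlated by -0.022 over 7965 genes, and the blocked genotype fit called 62 genes, 58 of them among the 61.

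The 61 genotype calls became 5 with DESeq2 (which gave an adjusted p to only those 5 of the 61), 117 without a filter on low counts, 534 with no minimum fold, 16 in male cells (70 in female cells, with 5 and 15 of the 61 among them), 37 without the cells of most UMIs, 28 without mixed-sex cells and 22 in single-type cells, and 64 to 101 when a library was left out, with 31 to 49 of the 61 among them. In male cells Mesp1 (0.59), Mfap4 (0.52) and Hoxd9 (1.12) changed direction, and between the Ripply2- and Mesp2-rich members Rbp4 ran from -3.48 (without Grhl3-null replicate 1) to 0.23 (without WT replicate 2). The 39 calls of that split became 15 with DESeq2, 76 without the filter and 25 to 52 with a library left out. The 36 calls by Tbx6 became 9, 69 and 25 to 62. The 989 calls against presomitic cells became 617 in male cells. The 5 interaction calls became 0 with DESeq2, 64 without the filter, 8 in single-type cells (5 without mixed-sex cells, 1 of them shared) and 1 to 17 with a library left out, where 0 to 4 of the 5 were called. DESeq2 gave no adjusted p to any of the 5. The causes were not tested. Male members numbered 103 and female members 249 (23, 17, 36 and 27 against 104, 97, 23 and 25 by library). The alternatives without mixed-sex cells and with single-type cells, and the Tbx6 split, were chosen after seeing the data. The planned split by Tcf15 against Tbx6 was not run, because 10 members had more Tbx6.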
